A study of Mus musculus with 7 samples.

Results

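The genes described here carry retinoids from uptake to breakdown. They are 9 of the 16167 genes in the deposited table, found by symbol: Stra6 for uptake, Rdh10, Dhrs3 and Rdh19 for the exchange of retinol and retinal, Aldh1a1, Aldh1a2 and Aldh1a3 for the synthesis of retinoic acid, Crabp2 for its binding, and Cyp26b1 for its breakdown. They were chosen by their FPKM and its difference between mutants and controls in these same libraries. The differences of these 9 genes are therefore a description, and no p-value of theirs is given. The study sequenced RNA of whole kidneys of mouse embryos at E15.5, in 7 libraries. Mutants (4 libraries) carried Six2-Cre and Irx3/5(loxP/loxP), that is, both copies of the homeobox genes Irx3 and Irx5 were floxed. Controls (3 libraries) were Irx3/5(loxP/+) littermates, whose genotype is entered as WT. Every embryo thus carried at least 1 floxed copy. Six2-Cre is active in the nephron progenitors and so in the cells that descend from them, not in the stroma or the ureteric bud. The control labels name no Cre, so effects of the Cre transgene and of the deletion cannot be told apart. The sources used here do not say how many embryos a library holds, so all errors measure the spread between these libraries, which may be technical.

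Retinol circulates bound to a carrier, enters cells through the receptor STRA6, and is oxidised to retinal by retinol dehydrogenases such as RDH10. DHRS3 reduces retinal back to retinol. The ALDH1A enzymes oxidise retinal to retinoic acid, which CRABP2 hands to receptors in the nucleus and which CYP26 enzymes break down. In the embryonic kidney Aldh1a2 is known from the stroma and Aldh1a3 from the ureteric bud, and retinoic acid from the stroma acts through receptors to keep Ret expressed in the bud. Some of these genes, Dhrs3 and the Cyp26 genes among them, are themselves raised by retinoic acid in many tissues.

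Reads in the listed genes came to between 40511920 (control 3) and 69028943 (control 1) per library. Irx3 stood at 14.7, 14.2 and 12.7 FPKM (fragments scaled to gene length and library size) in controls 1 to 3 and at 6.63, 3.99, 5.57 and 6.75 FPKM in mutants 1 to 4. That was a log2 difference of -1.16 (exact permutation test over 35 splits, two-sided p = 0.0286, the smallest it can give). Irx5 RNA overlapped between the groups (exact permutation p = 0.943), and the exons removed are not named in the labels. Kidney markers were present in every library. Those of nephron progenitors summed to 192 to 195 FPKM in controls against 112 to 134 FPKM in mutants (3 of 7 called lower), and those of podocytes to 182 to 199 against 118 to 137.5 FPKM (4 of 7 tested called lower). Differences below are mutant minus control on the scale log2(FPKM + 1), with the standard error (SE) from limma. That scale understates the difference of genes with low values. A gene is called where limma's Benjamini-Hochberg adjusted p over the 13466 genes tested is under 0.05.

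The mean was higher in mutants for 8 of the 9 genes and lower for Rdh19. In 6 genes (Stra6, Rdh10, Dhrs3, Aldh1a2, Aldh1a3 and Cyp26b1) every mutant library lay above every control, in Rdh19 every mutant lay below, and in Aldh1a1 and Crabp2 the groups overlapped. Of all genes tested, 14.5% had groups apart (5.93% with mutants higher and 8.61% with mutants lower). Limma called 5 of the 9: Rdh10, Dhrs3, Aldh1a2 and Aldh1a3 higher, and Rdh19 lower. Of all genes tested 1.53% were called, 0.475% higher and 1.05% lower. The median log2 difference over the 9 was 0.47, against -0.002 over all genes tested. Because this contrast was known when the genes were chosen, nothing is read from these counts. All 9 passed the filter of at least 1 FPKM in at least 3 libraries. Rdh19 passed it through its controls alone. In the authors' deposited table, a DESeq2 comparison of the same libraries, 7 of the 9 had an adjusted p under 0.05, the same 5 together with Stra6 and Cyp26b1. There 5.49% of all genes with a p did.

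**Figure D1:**
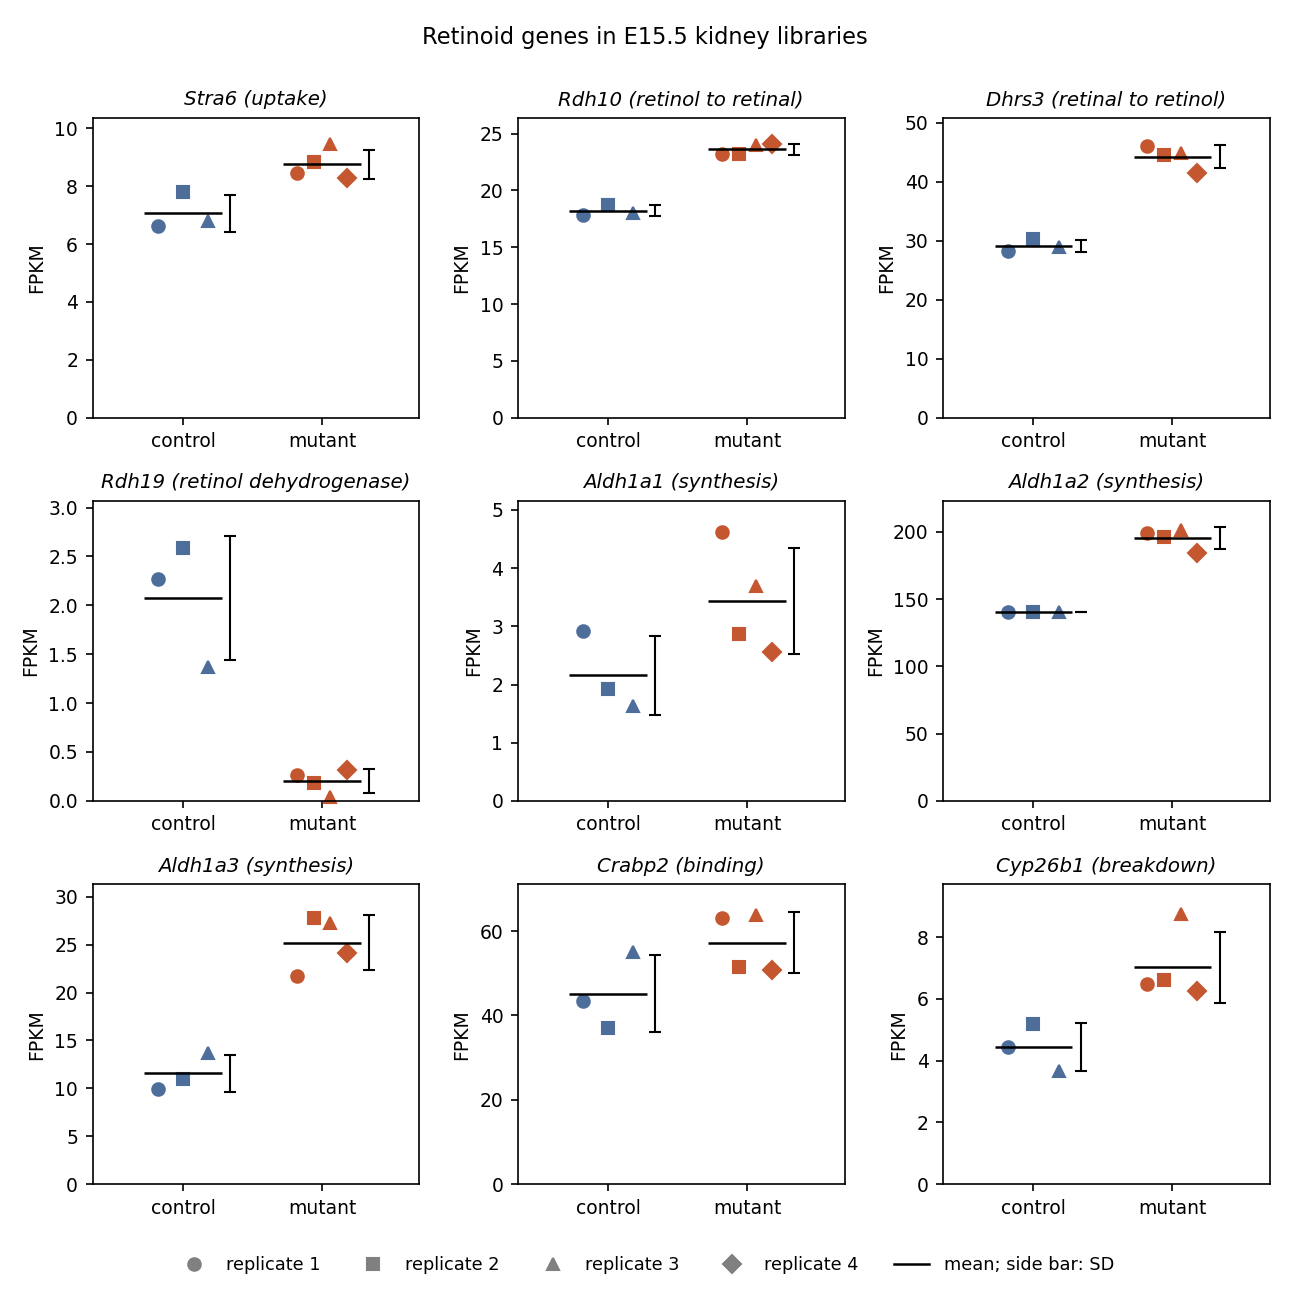
FPKM of the 9 genes in each of the 3 control and 4 mutant libraries, 1 panel per gene with its own linear axis from 0; points are libraries, lines are group means and side bars are the SD. Rdh19 fell to between 0.0345 and 0.320 FPKM in the mutants, Aldh1a1 and Crabp2 overlapped between the groups, and the other 6 genes lay higher in every mutant.

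Stra6 (ENSMUSG00000032327.15), the receptor that takes retinol from its carrier RBP4 into cells, was at 6.62, 7.80 and 6.80 FPKM in controls 1 to 3 and at 8.47, 8.83, 9.45 and 8.30 FPKM in mutants 1 to 4. Every mutant lay above every control, but the highest control and the lowest mutant were only 0.497 FPKM apart. The means were 7.07 ± 0.637 FPKM (SD, n = 3) and 8.76 ± 0.510 FPKM (n = 4), a log2 difference of 0.28 (SE 0.078), and the gene was not called. In the authors' deposited table the log2 fold change was 0.31 (SE 0.0995).

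Rdh10 (ENSMUSG00000025921.8), which makes retinal from retinol and is known as the main such enzyme of the embryo, was at 17.9, 18.7 and 18.0 FPKM in controls 1 to 3, against 23.2, 23.2, 24.0 and 24.1 FPKM in the mutants. Both groups were tight, and they lay 4.44 FPKM apart. Their means of 18.2 ± 0.473 FPKM (SD, n = 3) and 23.6 ± 0.497 FPKM (n = 4) differed by 0.36 on the log2 scale (SE 0.055). Dhrs3 (ENSMUSG00000066026.15) encodes the enzyme of the opposite reaction, retinal back to retinol. It was at 28.2, 30.3 and 28.9 FPKM in controls 1 to 3, against 46.0, 44.6, 44.9 and 41.5 FPKM in the mutants. All 4 mutants stood far above the controls, mutant 4 being the lowest of them. Means of 29.1 ± 1.07 FPKM (SD, n = 3) and 44.2 ± 1.95 FPKM (n = 4) gave a log2 difference of 0.59 (SE 0.061) and a ratio of 1.52. Dhrs3 was the only one of the 9 still called in each of the 7 fits that left out 1 library. Rdh10 was called in 2 of those 7, without mutant 1 and without mutant 3.

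Both enzymes of this pair were thus higher, and the reducing one by more. The ratio of Dhrs3 to Rdh10 FPKM was 1.58, 1.62 and 1.60 in the controls and 1.98, 1.92, 1.87 and 1.72 in the mutants. The controls lay within 0.04 of each other, and every mutant was above them. A ratio of RNA levels within a library does not give the direction in which retinol and retinal are converted.

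Rdh19 (ENSMUSG00000054052.6), a further member of the dehydrogenase family named for retinol, went the other way. It was at 2.27, 2.58 and 1.37 FPKM in controls 1 to 3, from 300, 292 and 106 reads, and at 0.265, 0.181, 0.0345 and 0.320 FPKM in the mutants, from 27, 16, 3 and 31 reads. Every mutant lay far below every control, and within each group 1 library (control 3 and mutant 3) stood lowest. The control mean of 2.07 ± 0.632 FPKM (SD, n = 3) was 10.4 times the mutant mean of 0.200 ± 0.124 FPKM (n = 4). The log2 difference was -1.34 (SE 0.15) on the log2(FPKM + 1) scale. It was -3.37 (SE 0.474) in the authors' deposited table, which adds no constant to the values. Its value is uncertain in another respect. Of the 50-base stretches of its longest transcript in the GENCODE annotation, 18.7% also occur in other genes. There are 440 such genes, most of them outside its family. Those of the family are Rdh1, Rdh7, Rdh9, Rdh16, Rdh16f1, Rdh16f2 and Rdh18-ps. How the counting treated reads that fit several genes is not given in the sources used here.

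Proximal tubule markers were lower in the mutants along with Rdh19. All 10 of the 12 listed markers that could be tested had a difference below 0, with 2 called lower, and their summed level ran from 129 to 163 FPKM in controls and from 49.8 to 104.8 FPKM in mutants. As a percentage of that sum, Rdh19 was lower in every mutant than in every control. It came to 1.47, 1.58 and 1.06% in controls and to 0.253, 0.193, 0.0693 and 0.383% in mutants. Single markers differed by other amounts than the sum, with a median log2 difference of -0.93 over those tested. Slc3a1, from that list, is named after its values were seen. Like Rdh19 and the marker sum, it was lowest in mutant 3. Its log2 difference was -1.496, against -1.34 for Rdh19. Its ratio of mean FPKM, mutant to control, was 0.265, against 0.0965 for Rdh19. The part of proximal tubule cells in the Rdh19 difference was not tested beyond these values. In RNA from whole kidneys, fewer cells of a type and less RNA per cell cannot be told apart, for any gene given here.

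Aldh1a2 (ENSMUSG00000013584.6) had the highest level of the 9 genes in every library and stood at the 98.4th percentile of mean FPKM of all listed genes. It was at 140.6, 140.4 and 140.3 FPKM in controls 1 to 3, against 199.4, 196.5, 201.6 and 184.0 FPKM in the mutants. The 3 controls were almost equal, and every mutant was far above them. The means were 140 ± 0.132 FPKM (SD, n = 3) and 195 ± 7.91 FPKM (n = 4), a log2 difference of 0.47 (SE 0.063) and a ratio of 1.39. The control SD, 0.0941% of the mean, is far below that of the other 8 genes, for example 3.68% for Dhrs3, 16.7% for Aldh1a3 and 31.3% for Aldh1a1. With 3 libraries it is a poor measure of the true spread. The call for Aldh1a2 held in 2 of the 7 fits that left out 1 library.

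Aldh1a3 (ENSMUSG00000015134.16), the enzyme known from the ureteric bud, was at 9.98, 11.0 and 13.7 FPKM in controls 1 to 3, against 21.7, 27.8, 27.3 and 24.1 FPKM in the mutants. Every mutant lay well above every control. The means of 11.6 ± 1.94 FPKM (SD, n = 3) and 25.2 ± 2.86 FPKM (n = 4) differed by 1.07 on the log2 scale (SE 0.12), a ratio of 2.18. Among the genes of the 9 that were higher this was the largest ratio. It was called in 6 of the 7 fits that left out 1 library and not without control 2.

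Aldh1a1 (ENSMUSG00000053279.9) was the lowest of the 3 enzymes, at 2.92, 1.93 and 1.63 FPKM in controls 1 to 3, against 4.62, 2.87, 3.69 and 2.57 FPKM in the mutants. Control 1 lay above mutants 2 and 4. The means of 2.16 ± 0.675 FPKM (SD, n = 3) and 3.44 ± 0.918 FPKM (n = 4) differed by 0.49 on the log2 scale (SE 0.18), and the gene was not called. Its sequence overlaps that of the adjacent relative Aldh1a7, with 6.54% of its 50-base stretches shared. Aldh1a7 itself was at 1.90, 4.44 and 4.24 FPKM in controls against 2.30, 7.56, 2.67 and 4.80 FPKM in mutants, with a different order of libraries.

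Summed over the 3 Aldh1a genes, the level was 153.5, 153.3 and 155.7 FPKM in controls 1 to 3, against 225.8, 227.2, 232.6 and 210.6 FPKM in the mutants, a ratio of 1.45. Aldh1a2 supplied 91.6, 91.6 and 90.1% of the sum in controls and 88.3, 86.5, 86.7 and 87.3% in mutants. Aldh1a3 supplied 6.51, 7.18 and 8.82% in controls and 9.62, 12.3, 11.7 and 11.4% in mutants. The share of Aldh1a3 was thus higher in every mutant and that of Aldh1a2 lower, although Aldh1a2 remained by far the larger part. The share of Aldh1a1 overlapped between the groups.

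**Figure D2:**
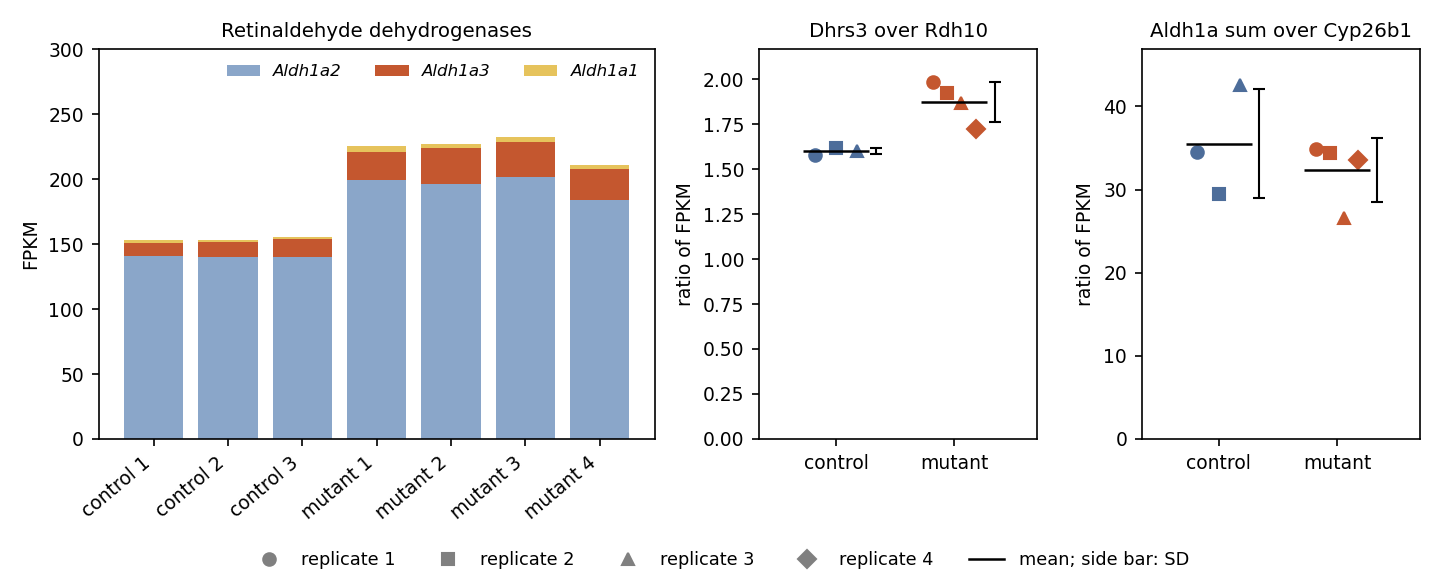
Left, FPKM of Aldh1a2, Aldh1a3 and Aldh1a1 stacked for each of the 7 libraries; middle and right, the ratios of Dhrs3 to Rdh10 FPKM and of the Aldh1a sum to Cyp26b1 FPKM, with points for libraries, lines for group means and side bars for the SD, all on linear axes from 0. The stacked sum and the ratio of Dhrs3 to Rdh10 were higher in every mutant, whereas the ratio to Cyp26b1 overlapped.

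Markers of the cells known to hold these enzymes were called higher in part. Of the 19 stromal markers, 17 had a difference above 0 and 3 were called higher. Their summed level ran from 792 to 1079 FPKM in controls and from 1037 to 1333 FPKM in mutants, which overlapped. Aldh1a2 as a percentage of that sum was 13.0, 15.6 and 17.7% in controls and 16.8, 19.0, 15.1 and 17.1% in mutants, and these overlapped too. The collagens Col1a1, Col1a2 and Col3a1 made up 33.8 to 44.6% of the sum. Without them, a choice made after the values were seen, the stromal sum was 597.8, 569.3 and 487.6 FPKM in controls against 741.5, 686.7, 745.5 and 687.0 FPKM in mutants. Every mutant then lay above every control. Aldh1a2 as a percentage of this reduced sum overlapped between the groups, at 23.5 to 28.8% and 26.8 to 28.6%.

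For Aldh1a3 the matching markers are those of the ureteric bud. The 12 ureteric bud and collecting duct markers summed to 329 to 349 FPKM in controls against 399 to 429 FPKM in mutants, with 2 called higher, 7 differences above 0 and 5 below. Relative to that sum Aldh1a3 came to 3.03, 3.15 and 3.98% in controls and 5.06, 6.95, 6.84 and 5.996% in mutants, all above the controls. Urothelial markers are of another epithelium that can be attached to a dissected kidney. They summed to 7.60 to 14.6 FPKM in controls against 5.66 to 12.9 FPKM in mutants and overlapped. Of the 7, 6 were listed and Krt5 was not. Endothelial markers summed to 118 to 126 FPKM in controls against 131 to 140 FPKM in mutants, and immune cell markers to 20.4 to 21.0 and 23.4 to 28.0 FPKM. All 5 and all 6 of these markers had differences above 0, and limma called none of them. Adrenal cortex markers, for tissue beside the kidney, summed to 1.24 to 1.60 FPKM in controls against 1.84 to 2.66 FPKM in mutants, from the 3 of 7 that were listed, with Mc2r called higher. The others listed, Cyp11a1 and Star, were too low for the test and overlapped between the groups. Their means were 0.24 and 0.16 FPKM in controls against 0.35 and 0.15 FPKM in mutants. Gonad markers summed to 8.05 to 9.58 FPKM in controls against 10.1 to 11.5 FPKM in mutants, from the 2 of 4 that were listed. These were Sox9, which kidney cells also express, and Ddx4, while Amh and Dmrt1 were not listed. The part of any of these cells in the differences of the 9 genes was not tested.

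Crabp2 (ENSMUSG00000004885.6), which binds retinoic acid in the cytoplasm and delivers it to the receptors, was at 43.3, 37.0 and 55.0 FPKM in controls 1 to 3, against 63.1, 51.4, 63.8 and 50.8 FPKM in the mutants. Control 3 lay above mutants 2 and 4. The means of 45.1 ± 9.14 FPKM (SD, n = 3) and 57.3 ± 7.16 FPKM (n = 4) differed by 0.35 on the log2 scale (SE 0.14), within the spread of the libraries, and the gene was not called. Its relative Crabp1 also overlapped between the groups, at 26.7, 29.2 and 31.7 FPKM in controls against 38.2, 24.9, 41.7 and 28.7 FPKM in mutants. The ratio of Crabp2 to Crabp1 FPKM overlapped between the groups.

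Cyp26b1 (ENSMUSG00000063415.13), which oxidises retinoic acid to forms that are cleared, was at 4.45, 5.19 and 3.65 FPKM in controls 1 to 3, against 6.47, 6.61, 8.74 and 6.27 FPKM in the mutants. Every mutant lay above every control, and mutant 3 stood well above the other mutants. The means of 4.43 ± 0.770 FPKM (SD, n = 3) and 7.02 ± 1.15 FPKM (n = 4) differed by 0.56 on the log2 scale (SE 0.13), a ratio of 1.58, and the gene was not called. In the authors' deposited table its log2 fold change was 0.66. Set against the enzymes of synthesis, the ratio of the Aldh1a sum to Cyp26b1 FPKM was 34.5, 29.5 and 42.6 in controls and 34.9, 34.4, 26.6 and 33.6 in mutants. These overlapped, so RNA for synthesis and RNA for breakdown could not be told to have moved by different amounts. Cyp26a1, the related enzyme with the same function, was low throughout, at 0.519, 0.635 and 0.544 FPKM in controls against 0.736, 0.561, 0.521 and 0.577 FPKM in mutants, and was not tested.

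**Figure D3:**
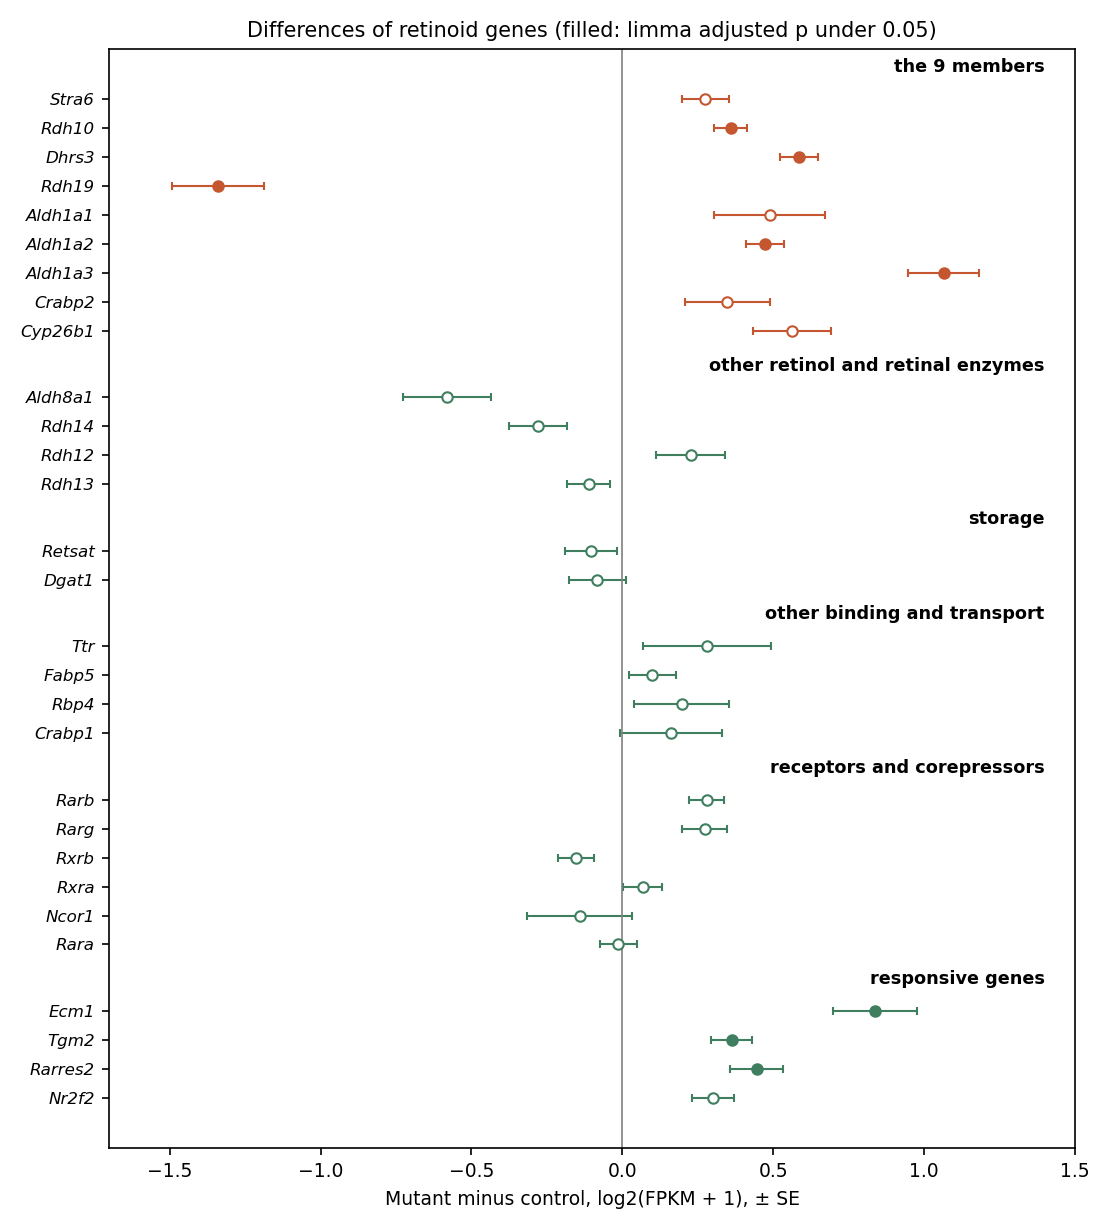
Log2 difference (mutant minus control, log2(FPKM + 1)) with its standard error for the 9 genes and the other named retinoid genes, ordered by role; filled symbols have a limma adjusted p under 0.05. Of the 9 genes 8 lie above 0, Rdh19 lies at -1.34, and of the other genes Ecm1, Tgm2 and Rarres2 are filled.

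Per length of gene, the order of the control means was Aldh1a2, Crabp2, Dhrs3, Rdh10, Aldh1a3, Stra6, Cyp26b1, Aldh1a1 and Rdh19, and the FPKM of Aldh1a1 and Rdh19 overlapped in controls. In the mutants Aldh1a3 had a mean above that of Rdh10, but their FPKM overlapped (21.7 to 27.8 against 23.2 to 24.1), as did those of Stra6 and Cyp26b1. Single libraries recurred at the edge of their group. Mutant 4 was the lowest mutant for 6 of the 9 genes (Stra6, Dhrs3, Aldh1a1, Aldh1a2, Crabp2 and Cyp26b1). Mutant 3 was the highest mutant for Stra6, Aldh1a2, Crabp2 and Cyp26b1 and the lowest for Rdh19. In mutant 3 the embryonic globin Hbb-y also came to 10.5% of Hbb-bs, against 1.34 to 3.45% in the other 6 libraries. Leaving out mutant 3 kept all 5 calls, and leaving out control 2 kept only that of Dhrs3.

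**Figure D4:**
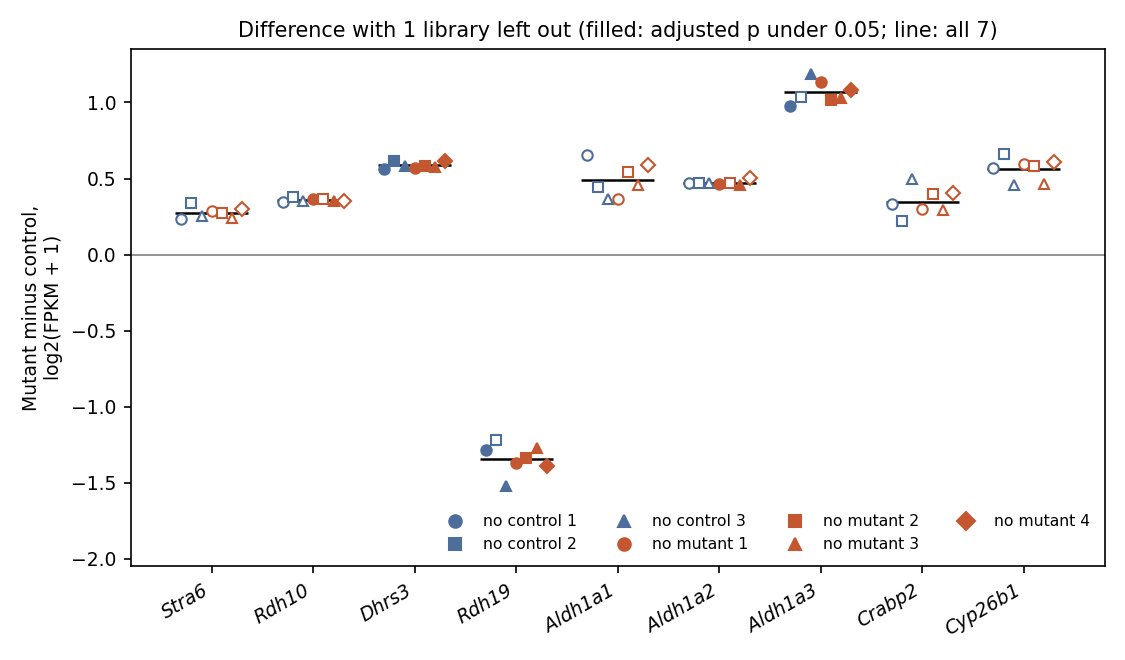
Log2 difference of each of the 9 genes when 1 of the 7 libraries is left out; lines give the value with all 7, and filled symbols have a limma adjusted p under 0.05. No omission changed the sign of a difference, and Dhrs3 alone is filled throughout.

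The rest of the pathway was described from lists by role. The lists were chosen with earlier results of these data known, so their counts are a description. Of 64 other retinoid genes, 46 were listed in the table and 37 could be tested. Limma called 3 of them higher (Ecm1, Tgm2 and Rarres2) and 0 lower, against 0.475% of all genes tested called higher and 1.05% lower. An unadjusted p under 0.05 was found for 11 of the 37, against 13.7% of all genes tested, and 19 differences were above 0 and 18 below. The median difference was 0.04, close to the -0.002 of all genes. At an adjusted p under 0.05, the authors' deposited table has 8 of the 46 higher and 1 lower. That table calls 1.75% of all genes higher and 3.74% lower.

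None of the other enzymes of retinol and retinal was called. Of 8 tested, 4 differences were above 0, and 2 had an unadjusted p under 0.05 in limma, against 13.7% of all genes tested. On the recovered reads limma-voom also called 0. The smallest p belonged to Aldh8a1, a retinal dehydrogenase relative, at 1.65, 1.63 and 1.48 FPKM in controls against 1.03, 1.04, 0.375 and 0.572 FPKM in mutants. Its log2 difference of -0.58 (SE 0.15; limma adjusted p = 0.0953) missed the threshold, although all mutants lay below all controls. The authors' deposited table gave it -1.07 with an adjusted p of 0.0316. Rdh14, Rdh12 and Rdh13 had log2 differences of -0.28, 0.23 and -0.11 (limma adjusted p = 0.214, 0.449 and 0.599). Of the storage genes, Retsat and Dgat1 differed by -0.10 and -0.08 (limma adjusted p = 0.708 and 0.815). Lrat, the enzyme that esterifies retinol for storage, was too low for the test and is named after its values were seen. It was at 0.0909, 0.0750 and 0.109 FPKM in controls (34, 24 and 24 reads) and at 0.399, 0.363, 0.154 and 0.299 FPKM in mutants (115, 91, 38 and 82 reads). Every mutant lay above every control, and the authors' deposited table gave a log2 fold change of 1.74 (SE 0.399) with an adjusted p of 0.000817.

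The other carriers of retinoids were not called, with 5 tested and a median log2 difference of 0.16. In limma 0 had an unadjusted p under 0.05, and limma-voom and the authors' deposited table called 0. Crabp1 differed by 0.16 (SE 0.17; limma adjusted p = 0.791) and Fabp5, which also carries retinoic acid, by 0.10 (SE 0.079; limma adjusted p = 0.690). The plasma carriers Rbp4 and Ttr differed by 0.20 and 0.28 (limma adjusted p = 0.695 and 0.671).

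Of the receptors, Rarb is the one best known to be raised by retinoic acid itself, through a response element just before its start. Such an element is a direct repeat of a short half-site with 5 bases between the copies. The windows from 250 bases before to 50 after each start in RefSeq (GRCm38.p6, not the build of the table) were searched on both strands for 2 copies in the same direction of AGGTCA, the variant AGTTCA, the variant GGGTCA or the variant GGTTCA, spaced by 5 bases or by 2. A repeat spaced by 5 occurred in 0.0974% of 32851 windows, and one spaced by 2 in 0.268%. Among the 49 other retinoid genes with a window, the repeat spaced by 5 occurred in Rarb and Cyp26a1, which are shown because they are the ones that hold it, with the half-sites in capitals.
Rarb: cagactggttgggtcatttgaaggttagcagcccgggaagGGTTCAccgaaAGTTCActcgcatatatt
Cyp26a1: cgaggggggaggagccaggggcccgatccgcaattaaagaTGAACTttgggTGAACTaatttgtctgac
The Rarb stretch is chr14:16575501-16575569 on the minus strand, with the repeat at bases -53 to -37 from the start. The Cyp26a1 stretch is chr19:37697736-37697804 on the plus strand, with the repeat at bases -32 to -16 and read on the opposite strand. Of the 9 genes, 5 had windows (Stra6, Dhrs3, Aldh1a1, Aldh1a2 and Cyp26b1, 11 windows in all), and 0 of these held either repeat. A match is a description of letters, not a site in use, and the lack of one says only that these letters are not in that window.

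Rarb was at 15.4, 15.9 and 16.0 FPKM in controls 1 to 3, against 19.0, 20.3, 19.4 and 18.8 FPKM in the mutants. Both groups were tight, and every mutant lay above every control. The means of 15.8 ± 0.335 FPKM (SD, n = 3) and 19.4 ± 0.692 FPKM (n = 4) differed by 0.28 on the log2 scale (SE 0.058), which missed the threshold (limma adjusted p = 0.0557). In the authors' deposited table the log2 fold change was 0.30 with an adjusted p of 0.00125. Cyp26a1, which holds the same kind of repeat, had overlapping groups and a log2 fold change of 0.08 with an adjusted p of 0.977 in the authors' deposited table.

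None of the other receptors was called either. Rarg was at 12.4, 12.9 and 11.9 FPKM in controls against 16.6, 15.2, 15.53 and 13.7 FPKM in mutants, with all mutants above all controls (log2 difference 0.27, SE 0.075; limma adjusted p = 0.123). Rara was at 11.8 ± 0.307 FPKM (SD, n = 3) and 11.7 ± 0.429 FPKM (n = 4), a log2 difference of -0.01 (SE 0.061; limma adjusted p = 0.969). Among the partners of these receptors, Rxrb was at 26.0, 26.3 and 26.0 FPKM in controls and lower in each mutant, at 24.6, 22.9, 24.0 and 22.1 FPKM (log2 difference -0.15, SE 0.059; limma adjusted p = 0.281). Rxra differed by 0.07 (limma adjusted p = 0.760), and the corepressor Ncor1 by -0.14 (limma adjusted p = 0.839). Of the 7 genes tested in this list limma and limma-voom called 0. In limma 3 had an unadjusted p under 0.05, against 13.7% of all genes tested. The authors' deposited table called 2, Rarb and Rarg, both higher, with an adjusted p of 0.031 for Rarg. It called 1.75% of all genes higher. Rxrg was too low for the test.

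Of 15 tested genes known to respond to retinoic acid, limma called 3 higher and 0 lower, with 7 differences above 0, 8 below, and a median of -0.005. About as many of these genes lay above 0 as below. In 6 of the 15 every mutant lay above every control and in 0 every mutant lay below, against 5.93% and 8.61% of all genes tested. The authors' deposited table called 5 of the 16 listed there higher and 0 lower, against 1.75% and 3.74% of all genes. Ecm1, a secreted protein of the kidney stroma known to depend on retinoic acid and to restrict Ret to the tips of the ureteric bud, rose from 29.2, 31.0 and 35.6 FPKM in the controls to 63.7, 49.3, 71.1 and 49.4 FPKM in the mutants. Every mutant lay well above every control, and mutants 1 and 3 were the highest. The log2 difference was 0.84 (SE 0.14; limma adjusted p = 0.0319). Tgm2, the transglutaminase induced by retinoic acid in many cells, rose from 14.9 ± 0.986 FPKM (SD, n = 3) to 19.5 ± 0.881 FPKM (n = 4), a log2 difference of 0.36 (SE 0.068; limma adjusted p = 0.0438). Rarres2, the chemoattractant chemerin, rose from 24.8 ± 0.716 FPKM (SD, n = 3) to 34.3 ± 3.88 FPKM (n = 4), a log2 difference of 0.45 (SE 0.087; limma adjusted p = 0.0471). In both genes, too, every mutant lay above every control. Of the 7 fits that left out 1 library, Ecm1 was called in 2, without mutant 1 and without mutant 3, and Tgm2 and Rarres2 in 1, without mutant 1.

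Nr2f2, an orphan receptor gene of the stroma and endothelium, was at 77.8, 73.8 and 69.5 FPKM in controls against 92.6, 92.1, 84.1 and 95.5 FPKM in mutants, apart but not called (log2 difference 0.30, SE 0.070; limma adjusted p = 0.0783). Ret, the receptor of the ureteric bud tip, is named after its values were seen. It was at 7.88, 8.45 and 8.71 FPKM in controls against 9.51, 13.6, 14.6 and 10.6 FPKM in mutants, again with all mutants higher (log2 difference 0.47, SE 0.13; limma adjusted p = 0.141). In the authors' deposited table Nr2f2 and Ret were higher with adjusted p of 0.00489 and 0.0118. Ret is also 1 of the 12 ureteric markers above.

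**Figure D5:**
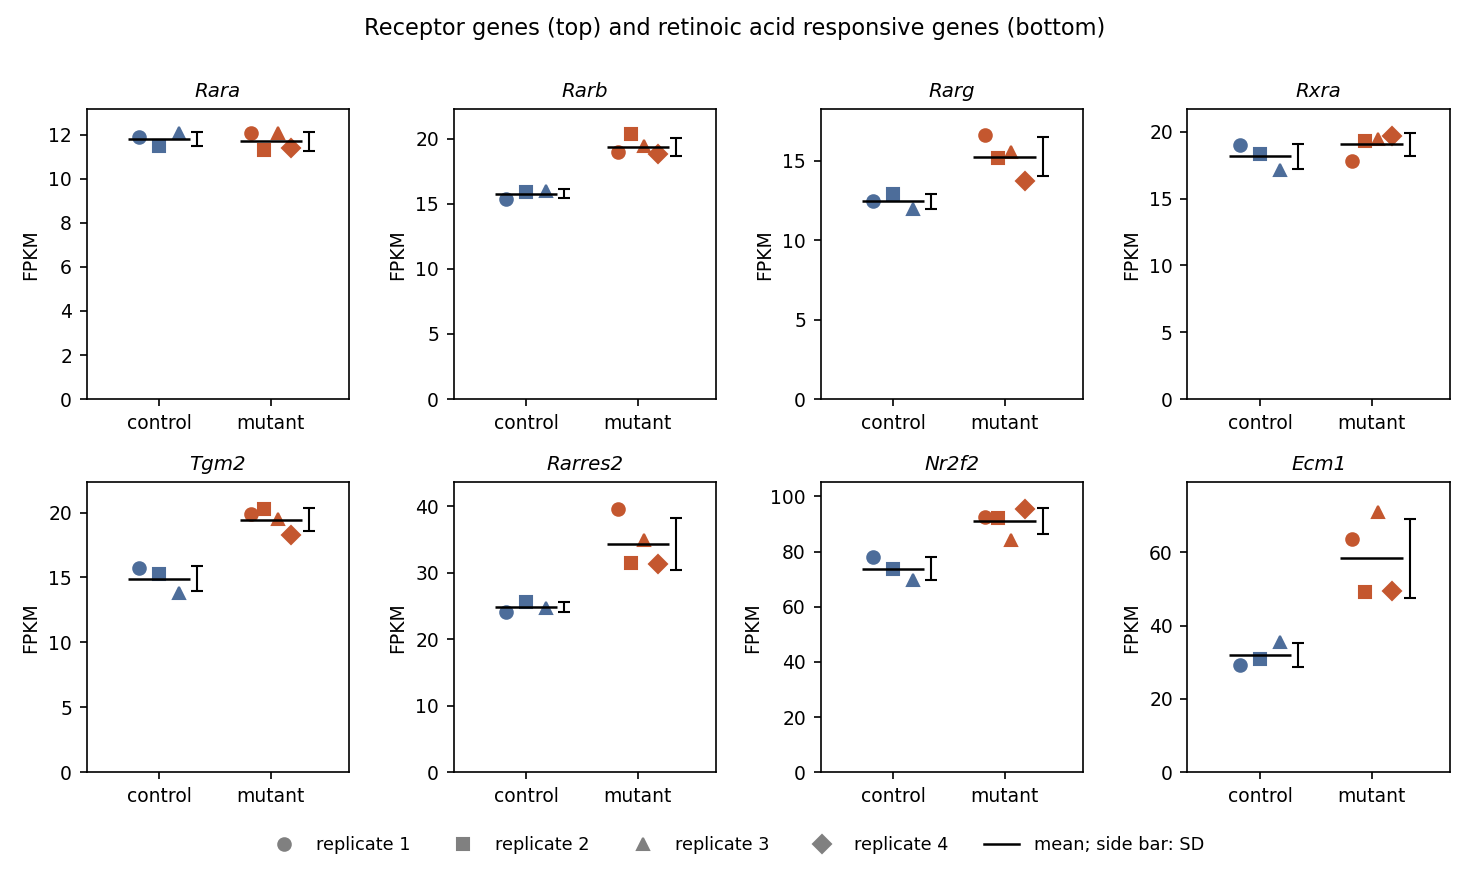
FPKM of receptor and responsive genes in each of the 3 control and 4 mutant libraries, 1 panel per gene with its own linear axis from 0; points are libraries, lines are group means and side bars are the SD. Ecm1, Tgm2 and Rarres2 passed limma's threshold, Rarb missed it with an adjusted p of 0.0557, and Rara was level between the groups.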

How the data were processed

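RNA from the 3 control and 4 mutant kidney libraries was isolated by Qiagen RNeasy and prepared with NEB Ultra II Directional, a stranded kit, per the labels' protocols. According to the submitters' processing notes the authors used STAR 2.6.0c, Trim Galore 0.5.0, HTSeq 0.6.1p2, FastQC 0.11.5 and DESeq2, on build mm39 (GRCm39). Whether counting used strand is not given in the sources used here. The authors deposited 1 table. Per the file headers, it holds FPKM per library and a DESeq2 comparison: baseMean, a normalized signal the authors made from counts, the log2 fold change, its error, a test score, and a raw and adjusted p-value. For 14 genes it gives no p-value, and the lowest deposited baseMean was 18.5.

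The members, the gene lists and the rule for named genes were chosen with earlier results of these data known. That rule named the 9 genes, Irx3 and Irx5, all called genes of each list of other retinoid genes, and the 4 genes of each list with the smallest p (all receptors). Of the genes this rule names, 1 stands in the counts only and is not reported here. The filter, at least 1 FPKM in at least 3 libraries, kept 13466 genes and left out 2701. Values of log2(FPKM + 1) were compared in limma 3.58.1 under R 4.3.3, two-sided, with the trend and robust options of its empirical Bayes step. As alternatives, the pseudocount was set to 0.1, the filter was dropped or raised to 5 FPKM, values were normalized by quantiles or by median-of-ratios factors, libraries were weighted, the replicate number was made a block, the trend and robust options were dropped, limma-voom was run on recovered reads, the deposited adjusted p was used, and each library was left out. Reads per library were recovered from baseMean and FPKM, with 100% of values within 0.05 of a whole number. No libraries agreed within counting noise (lowest chi-square per gene 20.4). The procedure was tested on simulated counts. Promoter windows came from RefSeq (GRCm38.p6), and shared sequence from GENCODE transcripts.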

Additional observations from a re-analysis of the deposited data

Results flagged for a closer look

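Among 44 quantities checked in the 4 mutants, 6 had 1 library farther from the others than Dixon's 95% limit for 4 samples allows. Chance alone gives about 1 in 20, and several of the quantities share a gene, so that they are not independent. Cyp26b1 was at 8.74 FPKM in mutant 3, against 6.27 to 6.61 FPKM in the other mutants. The ratio of the Aldh1a sum to Cyp26b1, which contains that value, was 26.6 in mutant 3, against 33.6 to 34.9. The same library had Hbb-y at 10.5% of Hbb-bs, against 1.38 to 2.24% in the other mutants. Aldh1a2 as a percentage of the stromal sum without collagens was 28.6% in mutant 2, against 26.8 to 27.1%. Rbp4 was at 0.637 FPKM in mutant 2, against 1.423 to 1.48 FPKM, and Dgat1 at 12.5 FPKM in mutant 1, against 9.52 to 9.98 FPKM. The groups of 3 controls were too small for this check.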

How the results depend on the processing

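The 9 genes kept the sign of their difference in all of their 151 alternative values, of which 131 also stayed on the same side of the threshold, 17 lost the call and 3 gained it. Over all genes limma called 206, against 109 with a pseudocount of 0.1, 60 with a minimum of 5 FPKM (which leaves out Rdh19 and Aldh1a1), 1302 with array weights, 886 in the authors' deposited table, and 15 to 481 with 1 library left out (27, 15 and 76 without controls 1 to 3; 481, 42, 119 and 33 without mutants 1 to 4). Of the other retinoid genes 3 were higher, against 1 with the pseudocount of 0.1, 1 with a minimum of 5 FPKM, 1 without trend and robust steps, 2 in limma-voom, 7 with array weights, 8 in the authors' deposited table, and 0 to 5 with 1 library left out. The count of 0 lower became 4 with array weights and 1 in the authors' deposited table. Of the 9 genes 5 were called, and 1 to 5 with 1 library left out. The causes were not tested.

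Deviations of same-numbered libraries from their group means had correlations of -0.156, 0.0276 and 0.0980. Those of unlike-numbered libraries ran from -0.253 to 0.141. With groups of 3 and 4 libraries these values cannot show whether the numbers pair them. The replicate number as a block leaves mutant 4 without a partner. In that fit limma called 2 genes of all, 0 of the 9 and 0 of the other retinoid genes (higher or lower). Of the 37 other retinoid genes tested, 9 had an unadjusted p under 0.05 there, against 10.3% of all genes tested.

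The Irx3 difference ran from -1.24 to -1.02 with 1 library left out, where the exact test cannot fall below p = 0.0667 or 0.1. Small differences changed sign. Irx5 ran from -0.12 to 0.11 with 1 library left out. With 1 library left out Ncor1 ran from -0.24 to 0.023 and Rara from -0.032 to 0.0030, and Rara came to 0.0097 under quantile normalization. Rdh19 and Lrat rest on few reads, and gene lengths behind the FPKM are not stated.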
